A study of Mus musculus with 10 samples.

Results

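Sox9, Epcam, Krt19, Krt7, Spp1, Prom1, Tff3, Cldn4 and Cd24a are genes by which biliary epithelial cells and bipotent liver progenitors are usually recognised. These 9 genes were taken by name from the 55385 identifiers of the deposited EP300 count table, and all 9 were found in it. The libraries came from hepatocytes of mice on a mixed C57BL/6J and 129SV background. Their sample titles all begin with HCC, the usual short form of hepatocellular carcinoma. All animals carried floxed alleles of the gene for EP300, a histone acetyltransferase that acts as a transcriptional coactivator. All were fed DDC, a porphyrinogenic compound that injures hepatocytes and bile ducts, and received a plasmid encoding the receptor tyrosine kinase cMet (pT3-cMet) by tail vein injection, for 5 months. The 2 libraries labelled EP300 KO came from mice given an adeno-associated virus with Cre under the TBG promoter, which is active in hepatocytes. The 2 libraries labelled EP300 WT came from mice given the same kind of virus with GFP. The promoter is not active in bile duct cells, so cells that were duct cells when the virus was given are not targeted. Which cells of a library had lost EP300 was not tested. Liver cells were sorted after perfusion. The labels mention pooled sequencing and tie no library to an animal, so p-values measure only the spread between libraries, which may be technical.

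Bile ducts are lined by cholangiocytes, which express SOX9, the keratins 7 and 19 and the adhesion molecule EPCAM. DDC feeding is a standard way to elicit a ductular reaction, in which cholangiocytes multiply and hepatocytes near the portal tracts switch on part of the ductal programme, commonly SOX9 and osteopontin (Spp1), without full keratin 19 expression. Notch and YAP signalling are known to drive this switch.

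In the libraries labelled EP300 KO, 4 of the 9 markers fell, 1 rose and 3 did not pass, and Krt7 had too few reads to be tested. The values of the groups did not overlap for 5 of the 9, against 66.4% of all genes tested. The intestinal trefoil peptide gene Tff3 and the membrane glycoprotein gene Prom1 fell the furthest, 5.28-fold and 5.27-fold. The transcription factor gene Sox9 fell 1.72-fold and Spp1 fell 1.32-fold, while the tight junction gene Cldn4 rose 2.43-fold. The other 4 genes, Krt19, Krt7, Epcam and Cd24a, gave no call. Krt19, Krt7 and Epcam had at most 33 counts in any library, while Cd24a had 43 and 83 counts in the 2 EP300 WT libraries. Over all 14200 genes tested, 34.2% were called in either direction, 16.7% higher and 17.5% lower in EP300 KO (edgeR quasi-likelihood test, Benjamini-Hochberg adjusted p below 0.05). Without EP300 WT replicate 1 or EP300 WT replicate 2, the 4851 calls over all genes became 2602 of 14648 and 2306 of 14679 genes tested. Under library size scaling alone, the higher calls made up 37.7% of all calls, against 48.8% with TMM scaling. The median log2 fold change of the 8 markers tested was -0.43, against -0.01 over all genes tested.

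Library totals lay between 17709799 and 18831671 counts. Ep300 itself stood higher under the KO label, at 73.7 and 72.3 CPM (the count divided by the TMM-adjusted library total and scaled up), against 62.3 and 57.9 CPM in EP300 WT. Its log2 fold change was 0.28 (SE 0.07, edgeR adjusted p = 0.00498), and the call ended without EP300 WT replicate 2 (edgeR adjusted p = 0.128). A gene-level count cannot show the loss of an exon, and each direction here is between libraries as labelled. The 2 labels also differed in Xist, the noncoding RNA of the inactive X chromosome, with 134 and 81.1 CPM in EP300 KO and 0.158 and 0.104 CPM in EP300 WT. None of the 4 Y-linked genes examined (Ddx3y, Kdm5d, Eif2s3y and Uty) passed in the same comparison, and all had counts in every library. Under library size scaling alone, 1 of the Y-linked genes was called lower in EP300 KO. Lower calls of Y-linked genes also appeared when EP300 KO replicate 1 was left out, a fit with a single library under that label. The Xist difference coincides with the labels, so a part of sex in the marker changes cannot be told apart from them. It was not tested.

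The levels of the markers spanned a wide range (the plot of CPM by library). Per kilobase of exon, the order in EP300 WT was Tff3 at 81.6 CPM per kb, Spp1 at 76.9, Prom1 at 6.40, Sox9 at 2.32, Cldn4 at 1.82, Cd24a at 1.27, Epcam at 0.607, Krt19 at 0.325 and Krt7 at 0.0595. No neighbours in this order overlapped between the 2 libraries, but with 2 libraries the order of close neighbours has little support. In EP300 KO the order by CPM per kb was Spp1 (58.1), Tff3 (15.4), Cldn4 (4.41), Sox9 (1.35), Prom1 (1.21), Cd24a (0.927), Epcam (0.604), Krt19 (0.342) and Krt7 (0.0531). Here the values of Sox9 and Prom1 overlapped. Among the genes tested, the EP300 WT level per kb of Tff3 stood at percentile 96.7 and that of Spp1 at percentile 96.4, whereas Epcam stood at percentile 17.3 and Krt19 at percentile 9.61. For scale, the hepatocyte product Alb stood at 33398 CPM per kb in EP300 WT.

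**Figure D1:**
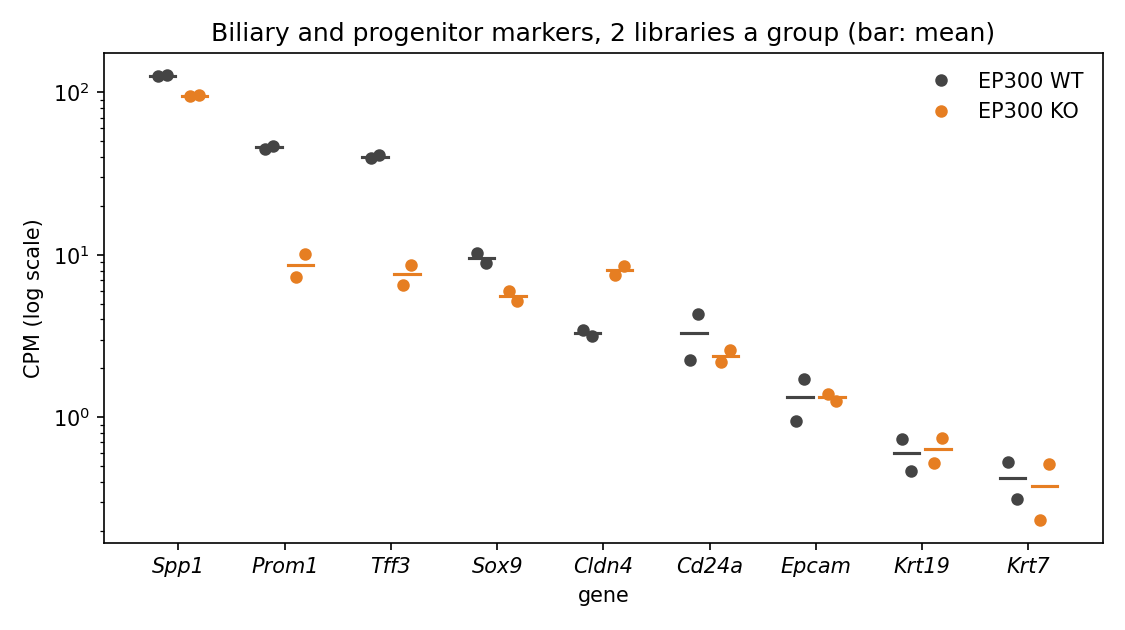
CPM of the 9 markers (log axis) in the 2 EP300 WT and 2 EP300 KO libraries, with points for libraries and bars for group means. Prom1 and Tff3 lie between 39.3 and 46.9 CPM in EP300 WT and between 6.54 and 10.1 CPM in EP300 KO, while Krt19 and Krt7 stay below 1 CPM in all 4 libraries.

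Spp1 made up most of the reads of this set. It accounted for 55.1% and 54.4% of the counts of the 9 markers in EP300 WT and for 75.2% and 71.8% in EP300 KO. Without Spp1, the other 8 markers summed to 102 and 107 CPM in EP300 WT and to 31.6 and 37.6 CPM in EP300 KO. Prom1 and Tff3 together carried most of that difference.

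Sox9 encodes a transcription factor that marks the ductal lineage in the embryonic liver and is switched on in hepatocytes under biliary injury. It lies on chromosome 11 (112782224 to 112787760, mm10). Sox9 had 10.3 and 8.89 CPM in EP300 WT and 5.96 and 5.17 CPM in EP300 KO. Both KO-labelled libraries lay below both WT-labelled libraries. The log2 fold change was -0.78 (SE 0.16, edgeR adjusted p = 0.00111). With a library left out, it ran from -0.88 to -0.67, and the weakest of these calls came without EP300 WT replicate 1 (edgeR adjusted p = 0.0489).

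Among the secreted products, Spp1 encodes osteopontin, a matrix phosphoprotein made by cholangiocytes and also by activated macrophages and stellate cells. The gene lies on chromosome 5 (104435118 to 104441050). Spp1 had 126 and 128 CPM in EP300 WT and 95.6 and 95.8 CPM in EP300 KO. The groups did not overlap, and the libraries of each label lay close together. The log2 fold change was -0.40 (SE 0.06, edgeR adjusted p = 7.81e-05). Of its exon bases, 18.8% overlap the predicted gene Gm42793, which was itself given at most 0.231 CPM in any library. Macrophage markers summed to 575 to 580 CPM in EP300 WT and to 796 to 880 CPM in EP300 KO. Stellate cell and fibroblast markers summed to 285 to 294 CPM in EP300 WT and to 181 to 189 CPM in EP300 KO. The part of either cell type in the Spp1 difference was not tested.

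Tff3 encodes trefoil factor 3, a mucin-associated peptide of goblet cells and bile duct epithelium that protects mucosal surfaces. It lies on chromosome 17 (31125306 to 31129646). Tff3 had 39.3 and 41.1 CPM in EP300 WT and 6.54 and 8.68 CPM in EP300 KO, without overlap. The log2 fold change was -2.40 (SE 0.12, edgeR adjusted p = 2.03e-10). Its relatives Tff1 and Tff2 had at most 2 counts in any library and were not tested.

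Of the surface markers, Prom1 encodes prominin-1 (CD133), a pentaspan glycoprotein of membrane protrusions that is used to isolate progenitor and tumour-initiating cells. It lies on chromosome 5 (43993620 to 44102032). Prom1 had 44.9 and 46.9 CPM in EP300 WT and 7.29 and 10.1 CPM in EP300 KO. The log2 fold change was -2.40 (SE 0.12, edgeR adjusted p = 2.38e-10). Falls of at least 4-fold were called in 1.39% of all genes tested, and Tff3 and Prom1 were the 2 markers among them. Their profiles over the 4 libraries were close to each other, with a root mean square difference of 0.0230 in centred log2 CPM. Both were lower in EP300 KO replicate 1 than in EP300 KO replicate 2.

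Epcam encodes a homophilic adhesion molecule of cholangiocytes and progenitors (chromosome 17, 87635979 to 87651129). It had 0.948 and 1.71 CPM in EP300 WT and 1.39 and 1.26 CPM in EP300 KO. The KO-labelled libraries lay inside the range of the WT-labelled ones. The log2 fold change was -0.01 (SE 0.37, edgeR adjusted p = 0.991). Cd24a encodes a small glycosylated surface protein of progenitors that leukocytes and immature red cells also carry (chromosome 10, 43578284 to 43584265). Cd24a had 2.26 and 4.31 CPM in EP300 WT and 2.20 and 2.59 CPM in EP300 KO. The groups overlapped because EP300 WT replicate 1 was as low as the KO-labelled libraries. The difference of -0.46 on the log2 scale (SE 0.30; adjusted p = 0.260 with edgeR) became 0.09 without EP300 WT replicate 2 and -0.84 without EP300 WT replicate 1.

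The type I keratin gene Krt19 (chromosome 11, 100140810 to 100148665) and the type II keratin gene Krt7 (chromosome 15, 101411043 to 101430313) encode the intermediate filaments of duct cells. Krt19 had 14 and 9 counts in EP300 WT and 9 and 13 counts in EP300 KO, or 0.737, 0.468, 0.521 and 0.747 CPM. Its log2 fold change was 0.08 (SE 0.48, edgeR adjusted p = 0.922). Krt7 had 10 and 6 counts in EP300 WT and 4 and 9 counts in EP300 KO. It did not pass the filter on low counts, and without the filter its log2 fold change was -0.15 (edgeR adjusted p = 0.902).

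Depth limits what these low counts can show. The summed KO to WT ratio was 0.994 for Epcam (95% counting interval 0.653 to 1.51) and 1.05 for Krt19 (0.561 to 1.98). For Krt7 it was 0.896 (0.396 to 1.99) and for Cd24a 0.726 (0.544 to 0.966). These exact binomial intervals cover counting error only, not the spread between libraries, which for Cd24a was wider. The KO to WT ratios of Tff3 (0.189) and Prom1 (0.190) lay below all 4 intervals, whereas the ratio of Sox9 (0.581) lay within those of Krt19, Krt7 and Cd24a. Counting error alone therefore does not exclude a change of the size of Sox9 for Krt19, Krt7 and Cd24a. Whether such a change could be detected at this depth was not tested.

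**Figure D2:**
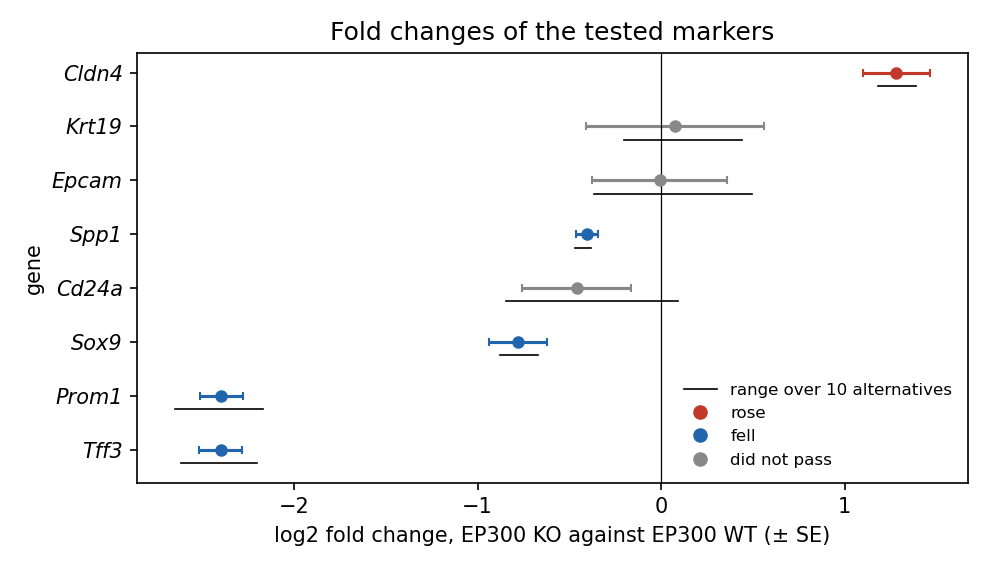
Log2 fold changes (EP300 KO against EP300 WT, horizontal axis) of the 8 markers tested, with standard errors and, as thin black lines, the range over 10 alternative analyses. Tff3, Prom1, Sox9 and Spp1 stay below 0 and Cldn4 above 0 throughout, whereas the lines of Epcam, Krt19 and Cd24a cross 0.

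Cldn4 encodes claudin-4, a sealing protein of tight junctions found in ducts and in many carcinomas. It lies on chromosome 5 (134945119 to 134946934). Cldn4 had 3.42 and 3.17 CPM in EP300 WT and 7.47 and 8.56 CPM in EP300 KO. Both KO-labelled libraries lay above both WT-labelled ones. The log2 fold change was 1.28 (SE 0.18, edgeR adjusted p = 4.71e-05). Rises of at least 2-fold were called in 3.15% of all genes tested.

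The start regions of 5 of the 9 markers (Epcam, Krt7, Spp1, Prom1 and Cldn4) matched the RefSeq promoter table (GRCm38.p6), and 3 of these windows held no annotated exon of the gene. All 3 are shown, and they head 1 marker that fell, 1 that rose and 1 that gave no call. Each line gives the 250 bases before the RefSeq start, 5′ to 3′ on the gene's strand, and capitals mark every match to a motif searched. Spp1 had 2 RefSeq windows, and the window closest to its GENCODE 5′ end is shown.
Spp1 (chr5:104434861-104435110, + strand): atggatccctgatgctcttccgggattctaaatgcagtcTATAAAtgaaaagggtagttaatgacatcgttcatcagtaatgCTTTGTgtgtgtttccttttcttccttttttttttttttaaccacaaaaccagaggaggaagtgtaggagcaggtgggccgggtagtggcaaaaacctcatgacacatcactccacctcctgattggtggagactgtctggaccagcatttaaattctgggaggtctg
Cldn4 (chr5:134946935-134947184, - strand): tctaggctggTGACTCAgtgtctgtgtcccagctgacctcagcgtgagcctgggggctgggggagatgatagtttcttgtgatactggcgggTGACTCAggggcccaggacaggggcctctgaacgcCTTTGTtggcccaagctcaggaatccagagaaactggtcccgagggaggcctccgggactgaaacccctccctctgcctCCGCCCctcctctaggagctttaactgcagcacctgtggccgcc
Epcam (chr17:87635729-87635978, + strand): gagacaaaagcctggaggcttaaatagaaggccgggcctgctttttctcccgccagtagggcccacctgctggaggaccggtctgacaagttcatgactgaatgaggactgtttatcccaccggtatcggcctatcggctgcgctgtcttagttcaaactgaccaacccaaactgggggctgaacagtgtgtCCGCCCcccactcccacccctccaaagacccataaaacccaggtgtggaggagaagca

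The motif letters, searched on both strands, were TATAAA for the core promoter box, GTGGGAA for the Notch effector RBPJ and GGAATG for the YAP partner TEAD. To these were added ACAAAG for SOX proteins, the GC box letters GGGCGG and the AP-1 letters TGANTCA. The Cldn4 window held TGACTCA 240 and 158 bases before the start, a motif present in 6.75% of all 32851 windows of this length. It also held a SOX match and a GC box, which 16.5% and 32.7% of windows hold. The Spp1 window held TATAAA 211 bases before the start (12.4% of windows) and a SOX match at 168. The Epcam window held a GC box 58 bases before the start. The RBPJ and TEAD letters, found in 5.42% and 12.6% of windows, had no match in these 3 windows. The GC content was 43.6% in Spp1, 62.0% in Cldn4 and 56.4% in Epcam, with a median of 52.4% over all windows. These are matches of letters only and show no binding.

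Of 29 further markers of the biliary epithelium, 23 were tested, 12 fell, 1 rose and 10 did not pass (median log2 fold change -0.47). Over all genes tested, 17.5% fell and the median was -0.01. The largest falls were in Ggt1, the gamma-glutamyltransferase of bile canaliculi and duct cells, and in Lgr5, a Wnt target induced in injured ducts that also marks pericentral hepatocytes. Ggt1 had 57 counts in EP300 WT and 5 in EP300 KO, 10.3 times more by scaled counts, with a counting interval of 4.18 to 33.1. In the edgeR test it fell by 3.31 on the log2 scale (SE 0.56, adjusted p = 0.000246), by 2.65 without EP300 KO replicate 1 and by 4.53 without EP300 KO replicate 2. Lgr5 stood at 13.6 and 11.6 CPM in EP300 WT and at 2.43 and 1.84 CPM in EP300 KO, and fell by 2.56 on the log2 scale (SE 0.19). With DESeq2, 9 of the 23 tested genes of this list fell and 0 rose.

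The following genes of this list were singled out after their values were seen. Sox4, a transcription factor that acts with Sox9 in bile duct development, fell by 1.91 on the log2 scale (SE 0.18). The predicted gene Gm26735 covers 54.6% of the Sox4 exon bases. The tetraspanin gene Tspan8 fell by 1.63 (SE 0.12) and the E-cadherin gene Cdh1, which hepatocytes also express, fell by 0.90 (SE 0.07). The secretin receptor gene Sctr and the chloride channel gene Cftr, narrow markers of duct cells, had at most 4 counts in any library. The 1 rise, in Dmbt1 (1.08, edgeR adjusted p = 0.0494), was lost in 8 of 10 alternatives, among them each library left out in turn, with a value of 1.66 without EP300 WT replicate 2.

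**Figure D3:**
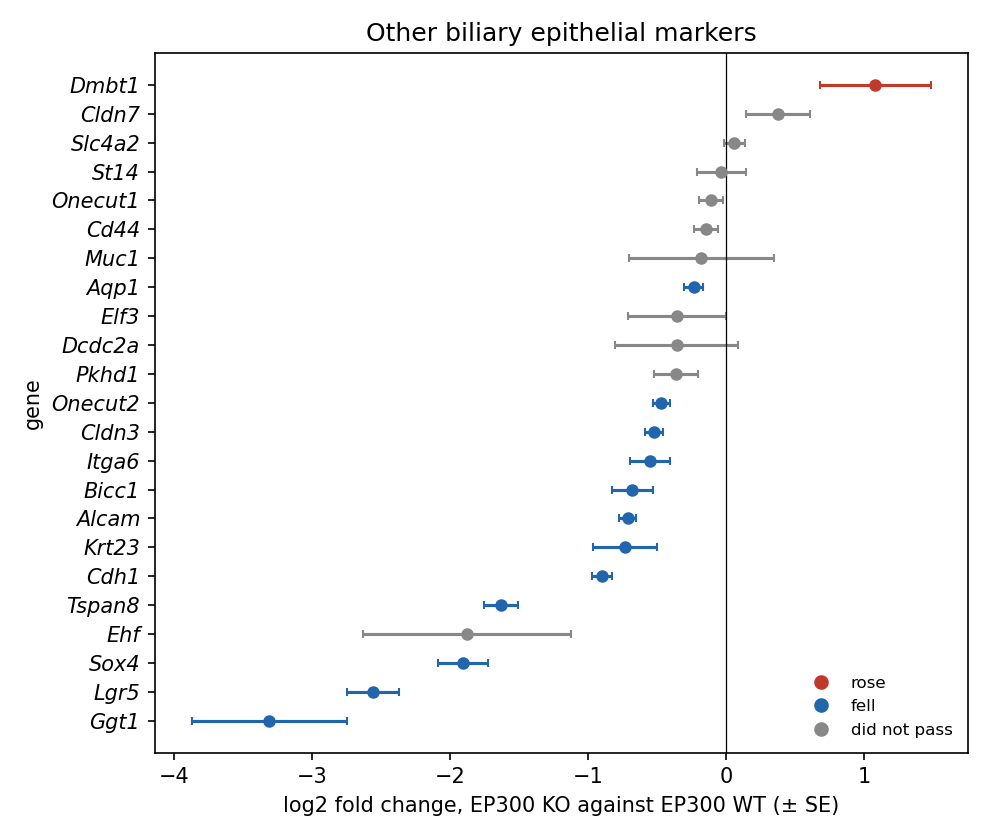
Log2 fold changes with standard errors (EP300 KO against EP300 WT, horizontal axis) of the 23 further biliary epithelial markers that were tested. Ggt1, Lgr5, Sox4 and Tspan8 lie furthest to the left among the genes drawn as falls, and Dmbt1 is the 1 gene drawn as a rise.

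Within its family Cldn4 was the 1 of 9 tested claudin genes that rose. Cldn1, Cldn2, Cldn3 and Cldn14 fell, and Cldn5, Cldn7, Cldn12 and Cldn23 did not pass. Among all genes tested, 17.5% were called lower and 16.7% higher. Cldn1, a claudin of hepatocytes and bile canaliculi, had 84.7 and 91.1 CPM in EP300 WT and 34.8 and 30.9 CPM in EP300 KO, so that it fell by 1.42 on the log2 scale (SE 0.08). Cldn2, a pore-forming claudin of pericentral hepatocytes and duct cells, fell by 0.99 (SE 0.07), and Cldn3, the main claudin of hepatocytes and cholangiocytes, fell by 0.52 (SE 0.06). The fall of Cldn14 (-0.50, SE 0.12) did not pass without EP300 WT replicate 1 (edgeR adjusted p = 0.0712) or without EP300 WT replicate 2 (edgeR adjusted p = 0.105). These claudins and Cldn23, Cldn5, Cldn7 and Cldn12 are named to complete the family, after their values were seen. Per kilobase, Cldn4 rose from 1.82 to 4.41 CPM per kb, still far below Cldn3 at 120 CPM per kb in EP300 WT.

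The wider list held 19 claudin and tight junction genes other than Cldn3, Cldn4 and Cldn7. Of these, 14 were tested and 78.6% of those were called, against 34.2% of all genes tested. In this list 10 fell and 1 rose (median -0.55). The counts were 7 and 0 without EP300 WT replicate 1, and 6 and 0 without EP300 WT replicate 2. The 1 rise was in Marveld3, a tight junction protein of the occludin family, with 1.68 and 1.95 CPM in EP300 KO and 0.895 and 0.779 CPM in EP300 WT. The rise by 1.11 on the log2 scale (SE 0.35; adjusted p = 0.0213 with edgeR) ended in 5 of 10 alternatives. These included the fits without EP300 KO replicate 2 (edgeR adjusted p = 0.101), without EP300 WT replicate 1 (0.105) and without EP300 WT replicate 2 (0.156).

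**Figure D4:**
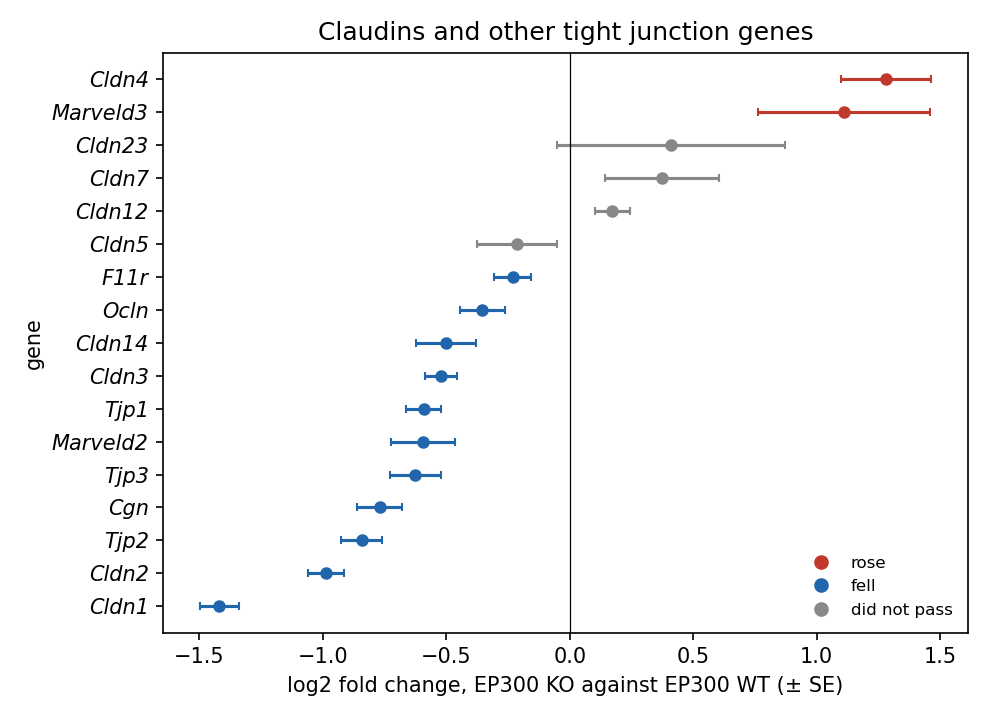
Log2 fold changes with standard errors (EP300 KO against EP300 WT, horizontal axis) of the tested claudins and other tight junction genes. Cldn4 and Marveld3 are drawn as rises, and Cldn1 and Cldn2 lie furthest to the left.

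Keratins 8 and 18, which hepatocytes share with duct cells, were abundant where keratins 7 and 19 were not. Krt8 had 635 and 639 CPM in EP300 WT and 538 and 699 CPM in EP300 KO, so the KO-labelled libraries lay on both sides of the WT-labelled ones (log2 fold change -0.04, edgeR adjusted p = 0.744). Krt8 was higher in EP300 KO without EP300 KO replicate 1 (0.15, edgeR adjusted p = 0.00351) and lower without EP300 KO replicate 2 (-0.24, edgeR adjusted p = 8.36e-07). Krt18 had 421 and 417 CPM in EP300 WT and 294 and 394 CPM in EP300 KO (log2 fold change -0.29, edgeR adjusted p = 0.0262). This call ended without EP300 KO replicate 1 (-0.08, edgeR adjusted p = 0.220), without EP300 WT replicate 1 (0.246) and without EP300 WT replicate 2 (0.282). Both keratins were singled out after their values were seen. Calls lower in EP300 KO made up 17.5% of all genes tested, and calls higher 16.7%. Of 8 tested genes in the list of simple keratins and desmosomal partners, 4 fell and 0 rose, but 0 fell without EP300 WT replicate 1 and 1 fell without EP300 WT replicate 2. The plakophilin gene Pkp2 (-0.39, SE 0.08) and the desmoglein gene Dsg2 (-0.30, SE 0.06), both desmosomal, had the largest falls. Pkp2 did not pass without EP300 WT replicate 1 (edgeR adjusted p = 0.0702), and Dsg2 did not pass without EP300 WT replicate 1 (0.0510) or without EP300 WT replicate 2 (0.0543).

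Among the Notch pathway genes that were called, the effector gene Hes1 had the larger fall. Hes1 had 210 and 212 CPM in EP300 WT and 84.1 and 112 CPM in EP300 KO, and fell by 1.10 on the log2 scale (SE 0.09; adjusted p = 1.80e-07 with edgeR). Jag1, the Notch ligand of the portal mesenchyme and duct cells, had 8.37 and 7.43 CPM in EP300 WT and 5.27 and 5.58 CPM in EP300 KO (-0.54, SE 0.16, edgeR adjusted p = 0.0160). Its call ended without EP300 WT replicate 1 (edgeR adjusted p = 0.172) and without EP300 WT replicate 2 (0.0735). These were the 2 of 14 tested Notch pathway genes that fell, and 0 rose (median -0.34). This share of 14.3% called lies below the 34.2% over all genes tested.

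Of 10 YAP and TEAD genes tested, 4 fell and 2 rose (median -0.23). The share called was 60.0%, against 34.2% of all genes tested. Without EP300 WT replicate 2, 3 fell and 0 rose. The connective tissue growth factor gene Ccn2 fell by 1.08 (SE 0.10), and Gm15270 covers 23.2% of the Ccn2 exon bases. Wwtr1, which encodes the YAP relative TAZ, fell by 0.69 (SE 0.08). The 2 that rose were Ccn1 (0.35) and Amotl2 (0.29), named after their values were seen, and both calls ended without EP300 WT replicate 2 (edgeR adjusted p = 0.121 and 0.148).

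Of 16 tested signals and receptors of the ductular reaction, 8 fell and 1 rose (median -0.41), and 4 fell and 1 rose without EP300 WT replicate 2. With all libraries, 56.25% of this list was called, against 34.2% of all genes tested. Tnfrsf12a, the TWEAK receptor through which progenitors are driven to divide, had 77.9 and 79.2 CPM in EP300 WT and 35.8 and 51.0 CPM in EP300 KO (-0.86, SE 0.11, edgeR adjusted p = 1.89e-05). The cytokine gene Lif fell by 1.42 (SE 0.33) at low counts, by 0.96 without EP300 KO replicate 1 and by 2.06 without EP300 KO replicate 2. The Lif call ended without EP300 WT replicate 1 (edgeR adjusted p = 0.0863) or without EP300 WT replicate 2 (0.0522). The 1 rise was in its receptor gene Lifr (0.55, SE 0.07), named after its values were seen. Met, the gene of the injected receptor, did not pass (0.05 on the log2 scale, edgeR adjusted p = 0.681). Reads of the plasmid may or may not be counted in it.

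Markers of other cells also differed between the labels (the plot of fold changes by list). The background for these counts is the 34.2% of all genes tested that were called, 16.7% higher and 17.5% lower. Fewer cells of a type and less RNA per cell cannot be told apart in such bulk samples. Of 20 hepatocyte identity genes, 11 rose and 3 fell (median 0.18), while their summed level was 115231 to 115999 CPM in EP300 WT and 110370 to 113142 CPM in EP300 KO. Among those that rose were the serpin gene Serpina1c at 1.03 (SE 0.08) and the tyrosine aminotransferase gene Tat at 0.90 (SE 0.05). Reads of Serpina1c can be split among near-identical copies, and 31.5% of its exon bases overlap another gene. The 8 endothelial markers summed to 372 to 387 CPM in EP300 WT and to 291 to 332 CPM in EP300 KO, with 5 falling and 0 rising. Examples are Lyve1 at -0.88 (SE 0.13) and Tek at -0.65 (SE 0.13). Without EP300 WT replicate 1, 2 of the endothelial markers fell, and Tek did not pass (edgeR adjusted p = 0.0563).

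Of the 9 markers of stellate cells and fibroblasts, 5 fell and 0 rose, against 17.5% called lower and 16.7% called higher over all genes tested. Reln fell by 1.86 (SE 0.07) and Acta2, the actin of contractile myofibroblasts, fell by 1.85 (SE 0.37). Without EP300 WT replicate 1, 1 of these markers fell and Acta2 did not pass (edgeR adjusted p = 0.0539), and 3 fell without EP300 WT replicate 2. Of 10 macrophage markers 5 rose and 1 fell, with Marco at 2.59 (SE 0.17) and Gpnmb at 1.35 (SE 0.08). The macrophage counts were 3 and 0 without EP300 WT replicate 1, and 2 and 0 without EP300 WT replicate 2.

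Mesothelium, which also expresses keratins 7 and 19, left few reads. Its 4 markers summed to 1.47 to 2.29 CPM in EP300 WT and to 0.405 to 0.575 CPM in EP300 KO, none was tested, and Wt1 had 0 counts in EP300 KO. The 9 lymphocyte markers, whose cells can carry Cd24a, summed to 1.69 to 2.23 CPM in EP300 WT and to 1.45 to 2.24 CPM in EP300 KO. The 6 neutrophil markers summed to 14.7 to 16.6 CPM in EP300 WT and to 9.94 to 12.6 CPM in EP300 KO. Of these, S100a9 (-0.98, SE 0.28) and Csf3r (-0.44, SE 0.16) fell. Neither passed without EP300 WT replicate 2 (edgeR adjusted p = 0.235 and 0.263), nor without EP300 KO replicate 2 (0.0747 and 0.0592), and Csf3r also failed without EP300 KO replicate 1 (0.0931) and without EP300 WT replicate 1 (0.116). The 5 erythroid markers summed to 12.4 to 12.8 CPM in EP300 WT and to 52.9 to 57.1 CPM in EP300 KO, and of 4 tested, 2 rose, Alas2 by 2.85 (SE 0.10) and Klf1 by 1.22 (SE 0.26). Klf1 did not pass without EP300 WT replicate 2. The part of these cells in the marker changes was not tested. For comparison with these lists, 34.2% of all genes tested were called in either direction.

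**Figure D5:**
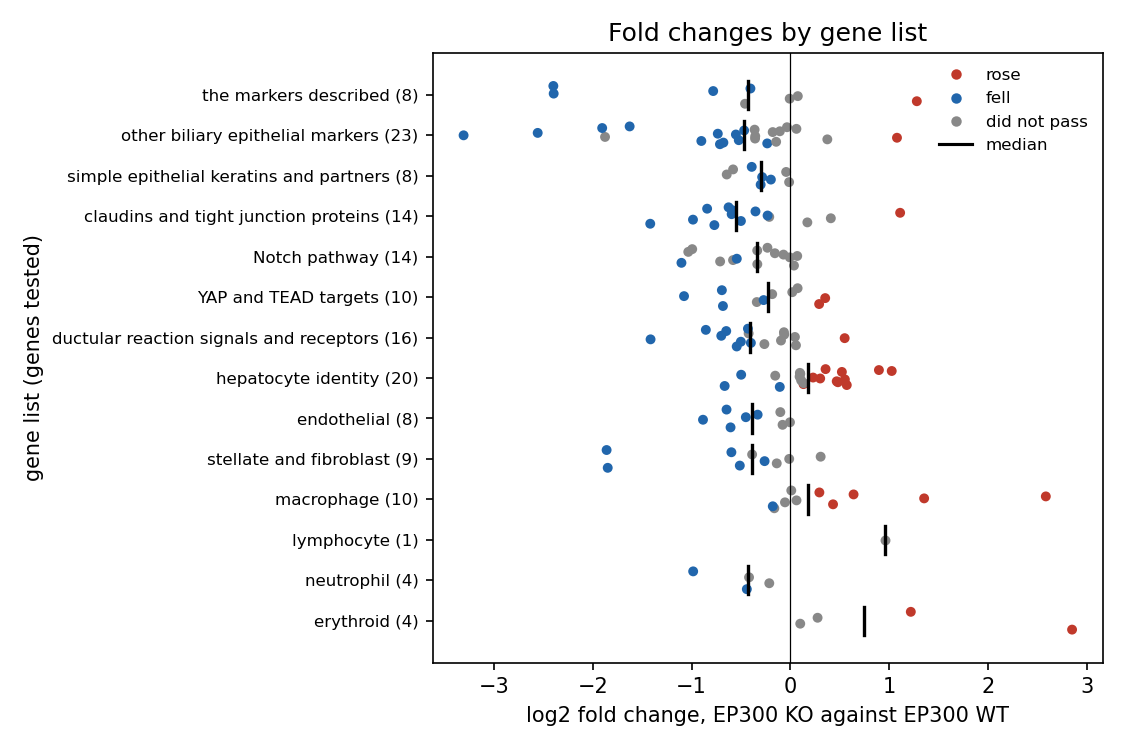
Log2 fold changes (EP300 KO against EP300 WT, horizontal axis) of the tested genes of each list, with points for genes and black bars for list medians. The 8 tested markers described here have a median of -0.43, and the 23 further biliary markers have a median of -0.47.

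Likeness was measured as the root mean square difference in centred log2 CPM over the 4 libraries, against the tested genes of the other lists. Spp1 was closest to the hepatocyte and biliary transcription factor gene Onecut2 (0.0349), which fell by 0.47. The nearest gene to Epcam was the Notch coactivator gene Maml2 (0.0476), and the nearest to Sox9 was the endothelial gene Tek (0.0590). Krt7 was nearest to the mucin gene Muc1 (0.0799) and Krt19 to the desmin gene Des (0.101), both sets at low counts. Cd24a lay closest to Ankrd1 (0.131) and Cldn4 to Serpina1c (0.135). For Tff3 and Prom1 the closest genes, Lgr5 (0.271) and Reln (0.287), lay more than 10 times farther away than the pair lay from each other. With 4 libraries in 2 groups, this measure mostly reflects the size of the fold change.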

How the data were processed

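Gene counts were examined in 4 mouse hepatocyte libraries with HCC in their titles, 2 labelled EP300 KO and 2 labelled EP300 WT. Raw counts of reads, as whole numbers, were deposited for these libraries in 1 table, in which 4 further columns match no sample and were not used. Per the submitters' processing notes, mm10, STAR, HTSeq and DESeq2 were used, without roles given. The deposited EP300 counts carry Hisat in their name, an aligner these notes do not list, so the aligner used for them is not settled. The annotation, the strand setting and versions are not given in the sources used here. The labels name a TruSeq RNA kit. Symbols matched 55144 of 55385 identifiers. GENCODE M21 (mm10) gave coordinates and exon lengths. Overlap with other genes was computed from its exons without regard to strand.

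Counts were tested with edgeR 4.0.16 in R 4.3.3 (TMM factors, low counts removed by filterByExpr at 10, a quasi-likelihood model of group alone with 2 residual degrees of freedom). Adjusted p-values are Benjamini-Hochberg values over all 14200 genes, with a threshold of 0.05. Each SE was derived from the fold change and its F statistic. Libraries of a label differed beyond sampling noise (chi-square per degree of freedom at least 2.70), so none was treated as a library deposited in duplicate. This does not show that they came from separate animals. The scripts were tested on simulated data. The markers and lists were chosen with earlier results of these data known. Named genes were the 9 markers, Ep300, Met, Xist and the 2 passing genes with the largest change of each list, at 1 CPM or more in the higher group. 1 gene of the further biliary list is not reported here. Others are marked as chosen after their values were seen. Likeness used a pseudocount of 0.5 CPM.

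Alternatives were DESeq2 1.42.0, limma-voom (limma 3.58.1), library size scaling, no filter, removal of the 20 most abundant genes, a replicate block, and the omission of single libraries. Matched human rows were to be read for DDC+Met against Met in the 6 diet libraries. Their tables carry human-form identifiers that no table used here pairs with gene names, so that comparison was not analysed here.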

Additional observations from a re-analysis of the deposited data

How the results depend on the processing

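In all 10 alternatives, 5 of the 9 markers were called, 4 lower and 1 higher in EP300 KO. The number of genes called over the whole table was 4851 and fell to 2703 without a filter, where 24666 genes were tested. Omitting single libraries gave 2306 to 5154 calls, with 2602 without EP300 WT replicate 1 and 2306 without EP300 WT replicate 2. The numbers of calls were 3270 with DESeq2 and 5190 with the replicate block. Same-numbered libraries share only a number. The deviations of EP300 KO and EP300 WT replicate 1 from their group means had a correlation of -0.00075 across 14200 genes, which are not independent replicates. The block changed no call of a marker, and Epcam stood at 0.014 in it.

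Markers without a call turned sign. Epcam moved from -0.01 to 0.054 with limma-voom and to 0.0041 without a filter, and omitting single libraries gave -0.36 to 0.49 (0.063 without EP300 KO replicate 2). Krt19 took values from -0.20 to 0.44, at -0.20 both without EP300 KO replicate 2 and without EP300 WT replicate 2. Cd24a took values from -0.84 to 0.091. Krt7 was fitted in 3 alternatives, at -0.83 to 0.31, with 0 calls. Met was -0.020 under library size scaling and took values from -0.019 to 0.124 when single libraries were omitted. Krt8 took values from -0.24 to 0.15 in the same way. The cause of these changes was not tested. Without a filter, 8 of the further biliary markers and 6 of the tight junction genes were called, against 13 and 11. Depth limits Krt19, Krt7 and Epcam. Alternatives for DDC+Met against Met were not run.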
